A study of Mus musculus with 2 samples.

Results

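Serum amyloid A proteins, lipocalin 2, orosomucoids, haptoglobin and C-reactive protein are secreted proteins of the acute phase response, the shift in blood protein production that follows injury or infection. The 10 genes described here were Saa1, Saa2, Saa3, Saa4, Lcn2, Orm1, Orm2, Orm3, Hp and Crp, out of 18193 genes with a probe set of 1 symbol on the array. They were chosen by symbol, and the array annotation gave them 12 probe sets, each with 1 gene symbol. No probe set with several symbols held a member. All 12 probe sets were above the signal floor explained below on both arrays, so no member was lost to it.

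An Affymetrix mouse array measured RNA from the livers of BALB/c nude mice, which lack a thymus and so have few T cells. There was 1 array for day 0, labelled as the control, and 1 array for day 3 after surgery that removed 70% of the liver, labelled as active regeneration. Both groups share the nude background. The labels used here name neither an age nor how many animals a sample holds, and no sham operation entered the comparison. With 1 array per day there is no replicate, no spread between animals and no test, and day, surgery and animal cannot be told apart.

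Liver parenchymal cells make most acute phase proteins. In textbook accounts interleukin 6 acts on them through STAT3, and interleukin 1 and tumour necrosis factor act through NF-kappa-B, with C/EBP factors and glucocorticoid acting beside both. Proteins that rise in blood in this response are called positive acute phase proteins, and those that fall are called negative. Lcn2 is also a product of neutrophils and Saa3 is also made by macrophages and fat cells, so whole liver RNA can hold transcripts of these genes from several cell types. In whole tissue, a change in the number of cells of a type and a change in RNA per cell cannot be told apart.

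The values are probe set signals on a linear scale. Signals under a common floor of 68.3, the higher of the medians of both arrays, were set to that floor, and a gene with several probe sets was represented by its brightest. The words higher and lower stand for at least a 2-fold difference of day 3 from day 0 in the counts of genes. Hepatocyte markers were bright on both arrays, with the albumin gene Alb at 59840 and 46192 and the transthyretin gene Ttr at 56967 and 39508. The arrays differed in the balance of 3' to 5' signal of bacterial spike RNAs added before labelling. All 8 spike pairs had more 3' signal for their 5' signal at day 3, by a median of 2.13 times. The pairs read the same dap, lys, phe and thr RNAs more than once, so they are not separate readings. Median log2 ratios were −1.20 for the 5' and −0.12 for the 3' spike probe sets. Where the member probe sets lie along their transcripts was not analysed, so the part of this shift in the members' values was not tested.

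The 10 genes did not move as a block. At day 3, 5 of them (Lcn2, Orm2, Saa2, Saa1 and Saa3) were at least 2-fold higher than at day 0, 1 (Crp) was lower and 4 (Saa4, Orm1, Orm3 and Hp) differed by less than 2-fold. Of all 12634 genes analysed, 12.9% were at least 2-fold higher and 5.62% at least 2-fold lower. The median log2 ratio was 1.25 over the members and 0.08 over all genes. Without probe sets that can read several transcripts, which leaves Saa2 with no value, the members' median was 0.38, and with the floor at 424.1, which leaves out Orm3, it was 1.87. All 5 higher members were at least 4-fold higher, as were 3.27% of all genes. Over probe sets, 6 of 12 were higher and 2 lower, against 11.2% and 6.07% of the 21677 probe sets analysed.

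**Figure D1:**
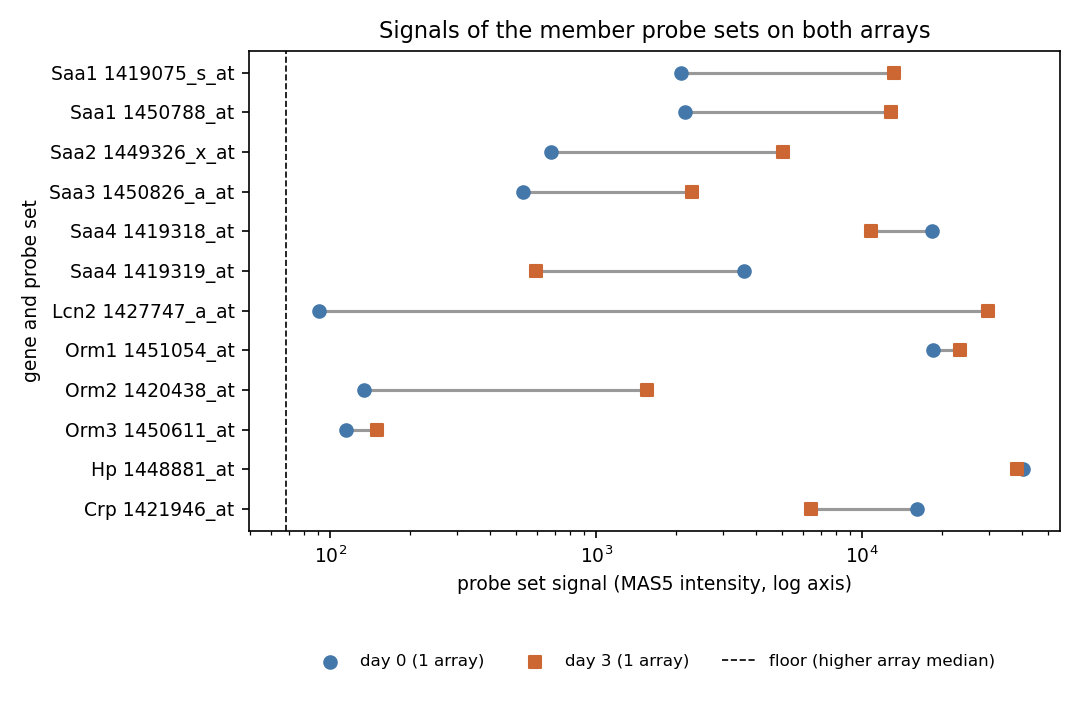
Signal of each of the 12 member probe sets (rows) at day 0 (circles) and day 3 (squares), 1 array each, on a log axis, with the floor of 68.3 as a dashed line. Lcn2 spans the widest range, from 90.7 to 29724, the Saa1, Saa2 and Saa3 pairs lie with day 3 to the right, and both Saa4 probe sets and Crp lie with day 3 to the left.

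Lcn2 encodes lipocalin 2, a secreted protein that binds bacterial iron-carrying siderophores and so withholds iron from microbes. Its probe set 1427747_a_at had a signal of 90.7 at day 0 and 29724 at day 3. The day 0 signal was 1.33 times the floor, and the day 3 signal was 435 times the floor. No other gene analysed had a higher ratio, which was 328-fold or 8.36 on the log2 scale. The size of the ratio rests on the faint day 0 signal: against a floor at the 75th percentile of the array (424.1) the log2 ratio was at least 6.13. For scale, the 95th percentile over 80 probe sets of smell and pheromone receptor genes was 63.1 (day 0) and 60.1 (day 3).

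The genes with the closest ratios to Lcn2 over these 2 arrays were Ube2c (log2 ratio 6.61), Ly6d (6.58) and Cdc20 (6.01). Ube2c and Cdc20 act in the mitotic anaphase-promoting complex pathway and Ly6d is a surface protein. Likeness over 1 pair of samples describes the size of the ratio and nothing more. The 250 bases before the annotated start of Lcn2, from the RefSeq promoter table, are shown because this gene had the highest ratio. Capitals mark matches to TTNNGNAA, a loose form of the letters that C/EBP factors bind, searched on both strands, and to TATAAA, also searched on both strands.
Lcn2 (GRCm38.p6, chr2:32387740-32387989, minus strand): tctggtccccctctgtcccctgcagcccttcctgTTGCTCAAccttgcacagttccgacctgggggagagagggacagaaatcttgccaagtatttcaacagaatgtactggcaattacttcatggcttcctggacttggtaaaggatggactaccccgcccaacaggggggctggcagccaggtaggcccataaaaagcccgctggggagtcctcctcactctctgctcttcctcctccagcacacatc
The window held 1 match to TTNNGNAA, starting 216 bases before the start, and none to TATAAA.

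The serum amyloid A genes encode small apolipoproteins that circulate on high-density lipoprotein. Saa1 and Saa2 are the inducible liver forms, Saa3 is an inducible form made in many tissues, and Saa4 is known as the constitutive form. In the RefSeq gene table they lie side by side on chromosome 7 in the order Saa3, Saa4, Saa1, Saa2, with 2 further entries, Gm31882 and Saa-ps, among them. The 3 inducible genes were higher at day 3 and Saa4 was not.

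Saa1 was measured by 2 probe sets. Probe set 1450788_at had a signal of 2159 at day 0 and 12883 at day 3, a 5.97-fold difference. Probe set 1419075_s_at had 2081 and 13227, a 6.35-fold difference. Their log2 ratios of 2.58 and 2.67 differed by 0.09, against an SD of 0.44 per probe set between the brightest 2 probe sets of 4380 genes. These 2 probe sets are not replicates of the condition, since they read the same 2 samples, and 1419075_s_at may also read Saa2 RNA.

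For Saa2, probe set 1449326_x_at had a signal of 678 at day 0 and 5023 at day 3, 7.41-fold higher, a log2 ratio of 2.89. Saa1 and Saa2 are near copies, and their values cannot be taken as separate measurements. The suffixes _s_at and _x_at mark probe sets that can read several transcripts. The target accession of 1419075_s_at, annotated as Saa1, is a Saa2 transcript in the RefSeq table, which also lists the symbols of both genes as synonyms of each other. Without probe sets that carry these suffixes, Saa2 had no value and Saa1 kept 1450788_at.

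Likewise higher was Saa3, whose probe set 1450826_a_at had 531 at day 0 and 2290.5 at day 3, a 4.31-fold difference and a log2 ratio of 2.11. Among all genes, 98.7% had a lower ratio than Saa2, 98.2% a lower ratio than Saa1 and 97.1% a lower ratio than Saa3. The day 0 signals of these probe sets were between 7.78 and 31.6 times the floor, so their ratios rest less on the floor than that of Lcn2. Over the alternative settings the log2 ratios ranged from 2.56 to 2.87 for Saa1, 2.86 to 3.18 for Saa2 and 2.03 to 2.40 for Saa3.

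Both Saa4 probe sets were lower at day 3, but by unlike amounts. The brighter, 1419318_at, had 18350 at day 0 and 10838 at day 3, a 1.69-fold lower signal and a log2 ratio of −0.76. The other, 1419319_at, had 3607 and 592, a 6.09-fold lower signal and a log2 ratio of −2.61. Of the 4380 genes compared in this way, 0.822% had brightest probe sets that differed by at least the 1.85 seen for Saa4. Saa4 therefore counts as under 2-fold through its brighter probe set and as lower with the mean over both, −1.68. The 5' spike probe sets had −1.20 on the same arrays, and which Saa4 probe set lies nearer the 5' end was not analysed.

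Windows from the RefSeq promoter table show how alike the regions before the Saa genes are. Of the 250 bases before the start of Saa1 and Saa2, 95.2% were identical in an alignment with free end gaps, against 53.2% for Saa1 and Saa3 and 49.6% for Saa1 and Saa4. All other pairs of members, apart from Orm2 and Orm3, lay between 45.2% and 57.6%. The Saa2 and Saa4 windows are shown whole, as those of a gene that was higher and a neighbour that was not, with capitals as for Lcn2.
Saa2 (GRCm38.p6, chr7:46751583-46751832, plus strand): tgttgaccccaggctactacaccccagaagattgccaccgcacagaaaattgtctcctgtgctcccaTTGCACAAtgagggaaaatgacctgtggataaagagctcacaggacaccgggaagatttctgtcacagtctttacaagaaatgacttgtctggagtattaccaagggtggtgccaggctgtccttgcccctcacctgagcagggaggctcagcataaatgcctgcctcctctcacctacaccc
Saa4 (GRCm38.p6, chr7:46732604-46732853, minus strand): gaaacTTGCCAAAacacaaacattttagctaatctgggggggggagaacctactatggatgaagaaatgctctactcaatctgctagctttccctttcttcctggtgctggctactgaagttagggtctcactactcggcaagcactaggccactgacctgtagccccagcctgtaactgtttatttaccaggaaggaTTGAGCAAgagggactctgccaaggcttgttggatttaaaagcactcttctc
For Saa1 and Saa3, whose windows overlap a longer annotated gene, only 30 bases round a match are given.
Saa1 (GRCm38.p6, chr7:46743144-46743173, minus strand): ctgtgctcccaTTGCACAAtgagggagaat
Saa3 (GRCm38.p6, chr7:46715757-46715786, minus strand): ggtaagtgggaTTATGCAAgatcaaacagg
Saa1 and Saa2 held the same 8 letters, TTGCACAA, 182 and 183 bases before their starts. Saa1 had 1 further match, at 86 bases, and Saa3 held 4 matches in all, the one shown at 99 bases. Saa4 held 2, at 245 and 52 bases.

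Of the genes on either side of the Saa cluster, Saal1 (signal 609.8 at day 0 and 750.3 at day 3), Hps5 (216 and 251) and Gtf2h1 (929 and 751) had log2 ratios of 0.30, 0.22 and −0.31, and Tph1 was under the floor on both arrays. Beside other members, 1110008P14Rik, next to Lcn2, had 1.15 and Col27a1, next to the Orm genes, −2.03, while the other flanking genes above the floor on at least 1 array were under 2-fold. These neighbours were looked up after the members' values were seen.

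The orosomucoids, or alpha-1-acid glycoproteins, are heavily glycosylated plasma proteins of the lipocalin family that bind lipids and drugs. Orm1, Orm3 and Orm2 lie in that order on chromosome 4 in the RefSeq gene table, with 1 further entry, Gm11212, between Orm1 and Orm3. Orm1 is known as the main form of mouse liver. Only 1 of the 3 genes was past 2-fold.

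Probe set 1420438_at of Orm2 had a signal of 134 at day 0 and 1552 at day 3, an 11.6-fold difference and a log2 ratio of 3.53. The day 0 signal was 1.97 times the floor and the day 3 signal 22.7 times the floor. Orm2 ranked at 76 of the 12634 genes by ratio. With the floor at the 75th percentile its log2 ratio was at least 1.87, so the size of this ratio also depends on a faint day 0 signal.

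Orm1, with probe set 1451054_at, had 18389 at day 0 and 23287 at day 3, a 1.27-fold difference and a log2 ratio of 0.34. The Orm3 probe set 1450611_at had 115 and 149.7, a 1.30-fold difference and a log2 ratio of 0.38. Its signals were 1.68 and 2.19 times the floor. Both ratios were smaller than the SD of 0.44 per probe set. That SD compares probe sets on the same arrays, so it holds no spread between animals. Of all genes, 65.7% and 67.7% had a lower ratio than Orm1 and Orm3. Orm1 and Orm3 kept the sign of their ratio under all alternatives that gave them a value, and neither passed 2-fold in any. The settings of probe set mean and shared probe sets could not change either value, as each gene has only 1 probe set, which is unshared. Because the orosomucoid transcripts are close copies, how far each of these probe sets reads the others' RNA was not tested.

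The windows before Orm2 and Orm3 were 87.2% identical, and they are set side by side because the genes' ratios were 3.53 and 0.38. Capitals mark the same letters as above.
Orm2 (GRCm38.p6, chr4:63362199-63362448, plus strand): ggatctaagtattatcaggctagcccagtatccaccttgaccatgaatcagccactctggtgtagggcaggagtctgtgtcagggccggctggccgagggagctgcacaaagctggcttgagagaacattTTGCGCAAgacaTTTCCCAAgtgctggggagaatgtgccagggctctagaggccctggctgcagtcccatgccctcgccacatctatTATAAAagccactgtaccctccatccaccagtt
Orm3 (GRCm38.p6, chr4:63356026-63356055, plus strand): gagggaacattTTGCACAAgacatttatca
Orm2 held 2 matches to TTNNGNAA, 120 and 108 bases before its start. Orm3 held 1, at 121 bases, and only 30 bases of its window are given because the window overlaps a longer annotated gene. Both held TATAAA.

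Hp encodes haptoglobin, which captures free haemoglobin in plasma and delivers it to macrophages. Its probe set 1448881_at had 40197 at day 0 and 38072 at day 3, a log2 ratio of −0.08. The sign of this small ratio turned in 3 of 9 alternative settings, quantile normalisation, loess and scaling to the hybridisation spikes, and its highest value was 0.29. Both other floors, the probe set mean and removal of shared probe sets could not change this ratio. The highest signals on the arrays were 74249 and 57028, and whether so bright a probe set still follows its RNA in proportion was not tested. Cd163, the macrophage receptor of the haptoglobin and haemoglobin complex, had 239 and 188.

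Crp encodes C-reactive protein, a pentraxin that binds phosphocholine on microbes and damaged cells. In mice it is only a minor acute phase protein, and its relative serum amyloid P, encoded by the neighbouring gene Apcs, is the major one. The Crp probe set 1421946_at had 16074 at day 0 and 6438 at day 3, 2.50-fold lower, a log2 ratio of −1.32. Of all genes, 2.83% had a lower ratio. Crp stayed at least 2-fold lower in 9 of 9 settings of scaling, floor and probe set choice, between −1.33 and −1.03. Both other floors, the probe set mean and removal of shared probe sets could not change the value of this 1 bright, unshared probe set. The value nearest to 2-fold, −1.03, came from scaling to the hybridisation spikes. The 5' spike probe sets had −1.20, and their part in this value was not tested. Apcs, by contrast, had 23108 and 28634, a log2 ratio of 0.31.

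**Figure D2:**
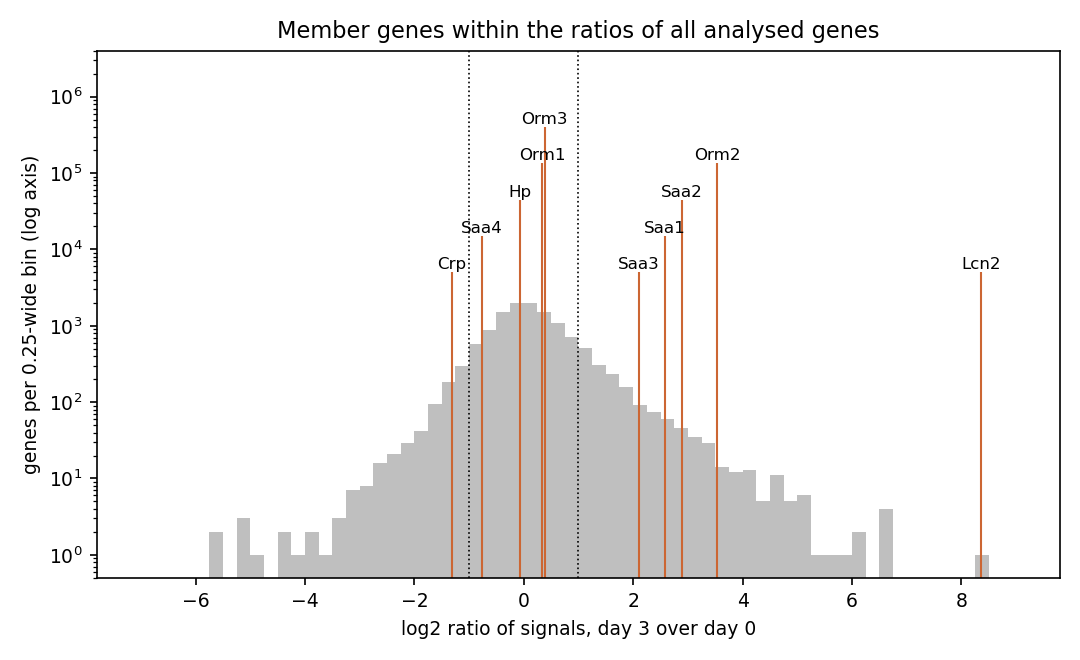
Histogram of the log2 ratios (day 3 over day 0) of all 12634 analysed genes in bins of equal width, with a log axis for the number of genes, vertical lines at the 10 member genes (their heights only space the labels) and dotted lines at 2-fold. Lcn2 at 8.36 lies at the right end, Orm2, Saa2, Saa1 and Saa3 lie in the right tail between 2.11 and 3.53, and Hp, Orm1 and Orm3 lie in the central mass.

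Over the promoter table, 8 of the 10 members had an entry; Orm1 and Hp had none. All 8 windows held TTNNGNAA on at least 1 strand, including those of Crp, Saa4 and Orm3, which were not higher at day 3. The 8 are not separate windows, since Saa1 and Saa2 were 95.2% identical and Orm2 and Orm3 87.2%. Of 32851 windows of the same length in the table, 36.8% held it. The STAT motif TTCNNNGAA was in 0 of 8 member windows and 7.02% of all windows. The NF-kappa-B motif was in 0 of 8 and 3.9% of all. TATAAA was in 3 of 8, those of Orm2, Orm3 and Crp, and in 12.4% of all. Every motif was searched on both strands, matches of different motifs could overlap, and a match is a description of letters rather than of a bound site.

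The closest genes by log2 ratio to the other higher members were Prelid2, Fstl1 and Ncapg for Orm2, Acot2, Polh and Btg2 for Saa2, Ccnf, Rpa2 and Psph for Saa1, and Alox5ap, Bicc1 and Samd4 for Saa3. For Crp they were Bag4, Mrnip and Rabgap1l. For the genes under 2-fold they were Phlpp1, Spn and Gabbr1 for Saa4, Eif4e2, Sox12 and Rrp36 for Orm1, Anxa7, Brip1 and Fbxw16 for Orm3, and Polr3gl, Vma21 and Zbtb22 for Hp. As for Lcn2, only genes above the floor on both arrays entered, and this is closeness of 1 ratio over 2 samples.

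Of 26 other positive acute phase genes analysed, 6 were at least 2-fold higher and 1 lower. Of all genes, 12.9% were higher and 5.62% lower, and these shares also stand beside the counts of the lists below. The median log2 ratio of the 26 was 0.01 against 1.25 for the members (0.38 without shared probe sets). The sign of the list median depended on the setting, between −0.08 and 0.31. The higher ones included the metal-binding metallothionein genes Mt2 (25.7-fold) and Mt1 (22.7-fold), Cd14, an endotoxin co-receptor gene (9.61-fold), and the metalloreductase gene Steap4 (3.20-fold, with a log2 ratio of 0.71 by its second probe set). The lower one was Hamp, the hepcidin gene. Lrg1 had 13800 and 24760.5, the serpin gene Serpina3n 10622 and 8082, the fibrinogen gene Fgb 46808 and 43260.4, and the hemopexin gene Hpx 42536 and 37324. As for Hp, whether probe sets as bright as those of Fgb and Hpx still follow their RNA in proportion was not tested, which limits the list median. Of 15 negative acute phase genes, 0 were higher and 4 lower, namely Serpina6 (5.69-fold), Pon1 (3.08-fold), Serpina7 (2.51-fold) and Fetub (2.01-fold). Their median was −0.53 (−0.17 with quantile normalisation, −0.18 with loess and −0.24 with spike scaling), and Fetub is named to complete the count.

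**Figure D3:**
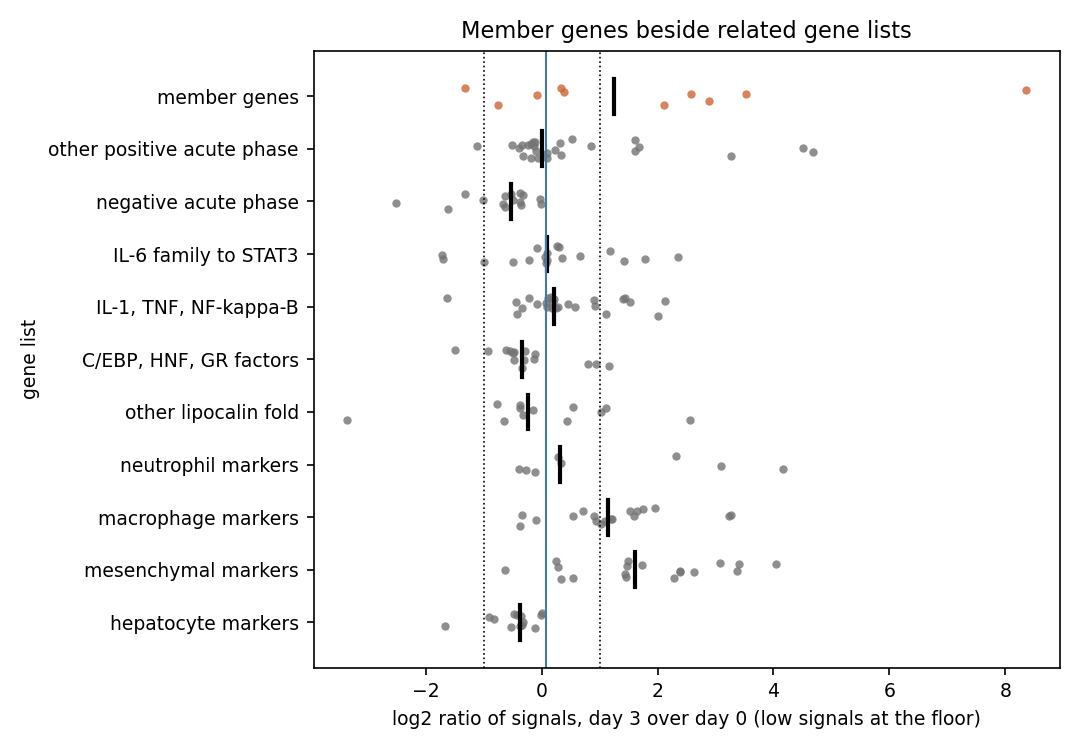
Log2 ratios (day 3 over day 0) of the 10 member genes (top row) and of the analysed genes of 10 related lists, 1 point per gene, with the list median as a black bar, the median of all genes (0.08) as a vertical line and 2-fold as dotted lines. The member median of 1.25, which is 0.38 without shared probe sets, lies to the right of the 0.01 of the other positive acute phase genes and the −0.53 of the negative ones, and beside the 1.14 of macrophage markers and 1.61 of mesenchymal markers.

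Of 18 analysed genes of the interleukin 6 family and STAT3, 4 were higher and 2 lower, beside 12.9% and 5.62% of all genes. Osmr, the oncostatin M receptor gene, was at least 5.08-fold higher, the cytokine gene Lif 2.69-fold, and Socs3, the feedback inhibitor induced by STAT3, 2.27-fold. Clcf1, also a cytokine gene, was at least 3.44-fold higher, while its other probe sets had log2 ratios of 0.14 and 0.74. The receptor genes Lifr and Il6ra were 3.30-fold and 3.25-fold lower, though 1 other Lifr probe set had −0.08. Il6 itself was under the floor on both arrays. Stat3 and the shared receptor gene Il6st had log2 ratios of 0.36 and 0.30, with other Il6st probe sets down to −1.53.

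Of 25 analysed genes of interleukin 1, tumour necrosis factor and NF-kappa-B, 6 were higher and 1 lower, beside 12.9% and 5.62% of all genes. The cytokine gene Il1a (at least 2.17-fold) was among the higher. Nfkb2, a subunit gene, was 4.39-fold higher, while its second probe set had 0.28 on the log2 scale. Tnfaip3 and Nfkbie, both inhibitors, were 4.04-fold and 2.87-fold higher, and Bcl3 and Nfkbiz, nuclear co-regulators of NF-kappa-B, 2.72-fold and 2.65-fold. Other probe sets had log2 ratios of 0.96 for Nfkbie and of 0.30 and 0.76 for Nfkbiz, all under 2-fold. The lower gene was Il1rap, a co-receptor gene (3.11-fold, with other probe sets between −0.27 and 0.01), while the receptor gene Il1r1 had 1192 and 1379. Of 15 C/EBP, hepatocyte nuclear and glucocorticoid receptor factor genes, Cebpd was 2.23-fold higher (0.60 on the log2 scale by its second probe set) and Cebpa 2.81-fold lower, while Cebpb and the glucocorticoid receptor gene Nr3c1 had log2 ratios of −0.29 and −0.54.

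Of 18 receptors and partners of the members analysed, 3 were higher, a share near the 12.9% of all genes, namely Cd5l (3.13-fold), Fcgr3 (2.99-fold) and Fpr2 (2.22-fold), a receptor of serum amyloid A, and 0 were lower. Slc22a17, a reported lipocalin 2 receptor, had 120.1 at day 0 and lay under the floor at day 3. Of 12 other genes of lipocalins and the related fatty acid binding proteins, Fabp4 (5.87-fold), Ptgds (2.15-fold, with 0.55 on the log2 scale by its second probe set) and Obp2a (at least 2.04-fold) were higher and Mup5 was lower (at least 10.2-fold), while Ambp and Apom had log2 ratios of −0.15 and 0.45. Another 8 genes of that list, 6 of them with Lcn symbols, were under the floor on both arrays.

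Neutrophils, macrophages and fat cells can make Lcn2 or Saa3, and their markers differed from list to list. Among 16 neutrophil markers with a probe set, Lcn2 left out, 8 were under the floor on both arrays and 3 were higher: Prtn3 (log2 ratio at least 4.17, signal 1231 at day 3), S100a8 (at least 8.57-fold, 585 at day 3) and S100a9 (4.98-fold, 550 at day 3). Mpo was under the floor on both arrays, Elane had 87.8 and 111, and Ngp was under the floor at day 3. The summed signal of the 16 was 22793 at day 0 and 21320 at day 3, most of it from Wfdc21, and 745 and 3031 without that gene, which was set aside after its values were seen. Of 18 analysed macrophage markers 11 were higher and 0 lower, led by Cd14, Marco (9.35-fold), Lyz2 (3.88-fold) and C1qc (3.38-fold), and their summed signal over 20 genes went from 12711 to 32152. The general macrophage marker Adgre1 was 2.14-fold higher, and the Kupffer cell marker Clec4f had 1098 and 2052.

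Among 18 markers listed as stellate and mesenchymal, 13 were higher and 0 lower, with Col1a1 at least 16.6-fold, Col3a1 10.6-fold, Col1a2 10.4-fold and Lum 8.41-fold. Their summed signal went from 12875 to 44378. The list also holds the mesothelial genes Msln and Upk3b and the epithelial keratin gene Krt19, which was 3.31-fold higher and is among the 13. Of 8 fat cell markers with a probe set, 4 were under the floor on both arrays, among them the defining genes Adipoq and Lep. Fabp4, which macrophages also express, was higher and Car3 and Pparg were lower. The sum over the 8 went from 47353 to 17815. Most of that sum came from Car3 alone (46153 and 15304), so it says little about the other fat cell markers. Of 12 endothelial markers 1, Vwf, was higher (2.45-fold), beside 12.9% of all genes, with sums of 16103 and 11774. Of 13 hepatocyte markers 1, Asgr2, was lower (3.17-fold), beside 5.62% of all genes, with sums of 468466 and 359566. All list sums use the signals as deposited and were not computed under the other scalings. Of 9 genes of tissues other than liver with a probe set, 6 were under the floor on both arrays and 1, Cela1, was lower (2.81-fold). Above the floor on both arrays were Cela1 (5182 and 1847), Krt10 (348 and 282) and Gfap (141 and 101), so signal above the floor was not limited to genes listed for liver. The part of neutrophils, macrophages and mesenchymal cells in the Lcn2 and Saa3 values was not tested.

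**Figure D4:**
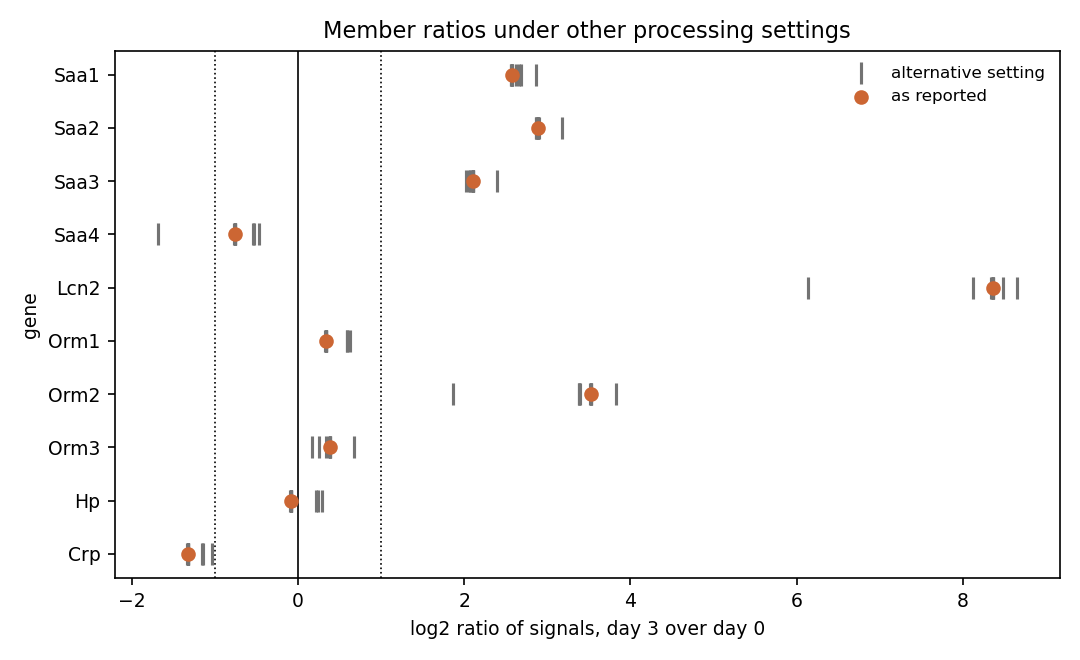
Log2 ratio (day 3 over day 0) of each member gene as reported (circles) and under the alternative settings of scaling, floor and probe set choice (bars), with dotted lines at 2-fold. Saa1, Saa2, Saa3, Lcn2 and Orm2 stay to the right of 2-fold under every setting that gave a value, Lcn2 and Orm2 drop to 6.13 and 1.87 with the higher floor, Saa4 moves to −1.68 with the mean over its probe sets, and Hp lies on both sides of 0.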

How the data were processed

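The authors deposited 1 linear intensity per probe set and array. The submitters' processing notes name GCOS and MAS5, without versions or a scaling target. Because MAS5 corrects each probe by its mismatch partner, faint signals carry the most noise. Detection calls were not used here, and the number of arrays (1 per day) limits the precision.

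Probe sets were named through the supplied array annotation: 34945 had 1 symbol, 932 several and 9160 none, besides 64 control probe sets. RefSeq (GRCm38.p6) changed 0 member symbols. The arrays were compared as deposited, with the floor, the brightest probe set per gene and the 2-fold threshold given above. The members and the gene lists were chosen with earlier results of these data known. Genes named from lists were up to 4 of the highest and 3 of the lowest past 2-fold, plus a fixed set, and the 3 genes closest to each member by ratio. The alternatives, 11 in number, were median centring, quantile normalisation, loess (fraction 0.3), hybridisation spike scaling, floors at the 25th and 75th percentile, no floor with 16 added, the mean over probe sets, removal of _s_at and _x_at probe sets, and thresholds of 1.5-fold and 4-fold. Steps were tested on simulated data. Python 3.11.15, pandas 2.3.3, statsmodels 0.14.6 and Biopython 1.88 were used.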

Additional observations from a re-analysis of the deposited data

How the results depend on the processing

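The count of 5 higher members was 5 under 10 of the 11 alternatives and 4 without _s_at and _x_at probe sets, where Saa2 had no value. The count of lower members, 1 as reported, was 2 with the mean over probe sets, 2 at 1.5-fold and 0 at 4-fold, and that of lower member probe sets was 1 at 4-fold. The members' median log2 ratio was 1.87 under the 75th percentile floor, where Orm3 had no value, and 0.38 without _s_at and _x_at probe sets. Over all other listed genes, 49 were higher and 14 lower; higher ones numbered 26 under the 75th percentile floor and 19 at 4-fold, and lower ones 33 at 1.5-fold and 2 at 4-fold. Of all genes, 1625 (12.9%) were higher and 710 (5.62%) lower. Spike scaling gave 2401 (19.6%) higher and 380 (3.1%) lower. The number of genes analysed changed with the floor, so shares stand beside the counts. The 25th percentile floor gave 1834 (11.2%) lower, and the 75th percentile floor 574 (7.47%) higher and 406 (5.28%) lower. Signals without a floor gave 1770 (9.73%) lower. At 1.5-fold 3028 (24%) were higher and 1797 (14.2%) lower, and at 4-fold 413 (3.27%) and 96 (0.76%). Spike scaling moved the median of all genes from 0.08 to 0.36 and that of the members from 1.25 to 1.54. No paired analysis was possible because each day has 1 array. The depth of these values is signal over background, which limits Lcn2, Orm2 and Orm3 at day 0.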
